A study of Mus musculus with 8 samples.

Results

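Open chromatin regions that were listed in both C2 and C18, and in neither C13 nor C10, were described across 8 ATAC-seq libraries of mouse common myeloid progenitors. ATAC-seq marks open DNA by letting a transposase insert adapters into it. The F-Seq peak lists of the 8 libraries were merged into 207739 regions, and any overlap of 1 base or more with a library's peak made a region called there. Of these, 525 (0.253%) were called in all 4 libraries of C2 and C18 and in none of the 4 libraries of C13 and C10, and they are called the members below. Members were thus chosen by the peak calls themselves, so that their presence in C2 and C18 and their absence from C13 and C10 is the rule and not a result.

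All 4 populations were sorted as KIT+ CD16/32- cells from wild-type C57BL/6 mice (bone marrow), with 2 libraries each. Sources used here do not give the age of the mice. C2 cells were CD34bright CD41+ CD9+, and C18 cells were CD34dim CD41+ CD9+ CD48dim. C13 cells were CD34dim CD41- CD9-, and C10 cells were CD34dim CD41+ CD9+ CD48bright. The series' design text names partly different clusters, so the names follow the sample titles. No label tells whether replicate libraries stem from different mice, so a p-value here sets a difference against a spread that may be technical.

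Common myeloid progenitors are marrow cells that feed the erythroid, megakaryocyte, granulocyte and monocyte lines. KIT is the receptor of stem cell factor, CD41 (gene Itga2b) is the alpha IIb integrin of platelets and their precursors, CD9 is a tetraspanin and CD48 is a receptor of the SLAM family. Granule genes of neutrophils are switched on in steps: proteases and peroxidase of the primary granules in promyelocytes, and lactoferrin, lipocalin and cathelicidin of the secondary granules later. S100a8 and S100a9, whose proteins pair as calprotectin, are among the most abundant products of maturing neutrophils.

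Members that cover the start of a granulocyte or basophil gene are shown first, because their promoters can be read directly. For 8 genes of the lists used here, the 250 bases before the RefSeq start lay wholly inside a member. Printed are the 6 from the marker lists, without Retnlg and Mcemp1 of a list written later: S100a8 (chr3:90668821-90669070, plus strand), S100a9 (chr3:90695722-90695971, minus strand), Camp (chr9:109849457-109849706, minus strand), Lcn2 (chr2:32387740-32387989, minus strand), Ms4a3 (chr19:11640852-11641101, minus strand) and Mcpt8 (chr14:56085198-56085447, minus strand), on build mm10 (RefSeq table for GRCm38.p6). Each sequence runs 5′ to 3′ towards the gene, and capitals mark ETS (GGAAG), C/EBP (TTGCNNAA), RUNX (TGTGGT) and GATA (GATAA) letters on either strand.
S100a8: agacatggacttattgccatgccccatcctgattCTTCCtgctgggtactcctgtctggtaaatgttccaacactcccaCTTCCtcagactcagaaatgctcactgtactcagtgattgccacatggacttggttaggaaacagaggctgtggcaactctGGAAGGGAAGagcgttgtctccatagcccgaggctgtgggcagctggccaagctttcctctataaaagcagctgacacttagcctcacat
S100a9: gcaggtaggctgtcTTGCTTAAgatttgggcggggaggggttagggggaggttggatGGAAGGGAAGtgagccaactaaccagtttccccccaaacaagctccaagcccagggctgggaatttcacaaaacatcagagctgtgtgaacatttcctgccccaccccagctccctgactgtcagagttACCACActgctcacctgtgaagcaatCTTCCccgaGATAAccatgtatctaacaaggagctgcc
Camp: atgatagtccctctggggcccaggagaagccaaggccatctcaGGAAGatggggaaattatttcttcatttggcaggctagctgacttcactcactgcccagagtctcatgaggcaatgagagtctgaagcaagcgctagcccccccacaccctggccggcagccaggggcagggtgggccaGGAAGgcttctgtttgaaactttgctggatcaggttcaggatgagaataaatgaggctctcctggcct
Lcn2: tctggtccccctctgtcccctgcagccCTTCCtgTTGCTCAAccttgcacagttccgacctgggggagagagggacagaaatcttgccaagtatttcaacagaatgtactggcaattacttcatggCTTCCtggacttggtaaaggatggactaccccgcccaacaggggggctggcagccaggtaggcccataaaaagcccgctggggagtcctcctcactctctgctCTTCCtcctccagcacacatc
Ms4a3: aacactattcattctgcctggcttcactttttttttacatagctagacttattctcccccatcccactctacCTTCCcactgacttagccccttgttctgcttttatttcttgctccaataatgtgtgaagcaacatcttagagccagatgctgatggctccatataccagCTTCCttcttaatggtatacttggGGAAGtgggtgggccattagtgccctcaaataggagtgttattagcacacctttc
Mcpt8: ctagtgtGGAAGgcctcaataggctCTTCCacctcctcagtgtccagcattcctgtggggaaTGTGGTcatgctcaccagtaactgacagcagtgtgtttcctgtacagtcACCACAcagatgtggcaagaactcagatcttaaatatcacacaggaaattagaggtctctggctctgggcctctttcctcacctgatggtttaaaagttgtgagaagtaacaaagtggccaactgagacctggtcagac

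S100a8 held 4 ETS matches and no other, of which the nearest pair abut at 90 to 81 bases before the start. S100a9 held 3 ETS matches with 1 each of the C/EBP, RUNX and GATA letters. Camp had 2 ETS matches, Lcn2 had 3 with 1 C/EBP match, Ms4a3 had 3 and Mcpt8 had 2 with 2 RUNX matches. Of the windows not printed, Mcemp1 held 3 ETS matches and 1 RUNX match, and Retnlg held 1 C/EBP match and none of the other 3 motifs. Thus 7 of the 8 windows held the ETS letters, the core recognised by PU.1 and other ETS factors, and 3 held the C/EBP letters. These letters are common: 64.1% of the 32851 promoter windows of the RefSeq table held ETS, 9.56% C/EBP, 14.0% RUNX and 22.6% GATA. Among the 18333 windows under any region, 68.0% held ETS, 8.07% C/EBP, 12.2% RUNX and 16.1% GATA. Members overlapped 23 windows in all, 17 of them of protein-coding genes. Of the 23, ETS letters stood in 16 (69.6%), C/EBP in 3 (13.04%), RUNX in 5 (21.7%) and GATA in 7 (30.4%). The windows under members had a median of 3 CpG dinucleotides and a GC content of 52%, against 13 and 58.4% for the 18333 windows under any region. All 32851 windows had medians of 6 and 52.4%, so in GC content the windows under members were close to all windows.

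Only peak lists, without read counts, were used, so sequencing depth is not known and intervals for counting error cannot be given. F-Seq lists hold 100000 peaks each and cover 88.8 and 90.6 Mb for C2, 62.5 and 78.9 Mb for C18, 97.6 and 101 Mb for C13, and 94.2 and 99.3 Mb for C10. HOMER lists, made mostly of 150-base peaks, are shortest in C18, with 72379 and 83548 peaks, against 171712 and 196264 in C2 and 235812 to 260118 in C13 and C10. The HOMER lists of C13 and C10 are sorted by falling score, whereas those of C2 and C18 are not, and chromosome X holds 1.67% to 1.97% of F-Seq peaks in C2 and C18, against 2.47% to 2.59% in C13 and C10. These differences between lists run along the same split as the rule and cannot be told apart from the populations. All 7 sort marker loci had F-Seq peaks in all 8 libraries, so the presence of a peak there does not tell the sorted populations apart. In bulk libraries, more cells with an open region and a more open region in each cell cannot be told apart.

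Most members were weak in C2. The rank percentile of a region is the place of its strongest peak in the library's list, with 100 for the strongest of the 100000 peaks. The median over members was 36.0 and 40.5 in the C2 libraries and 67.9 and 52.1 in the C18 libraries. Regions called in all 4 of these libraries, 44433 in number, had medians of 76.2 and 76.5 in C2 and 75.2 and 74.8 in C18. Weak calls are shared by other sets of this kind: regions of C2 and C10 alone had medians of 39.1 and 34.3 in C2, and regions of C18 and C10 alone had 45.3 and 59.3 in C18 and 30.8 and 30.9 in C10. No member reached a percentile of 90 in either C2 library, whereas 72 did in C18 replicate 1 and 47 in C18 replicate 2. At its weakest library a member had a median percentile of 19.8, from 0.226 to 82.5. In 72 members that value lay under 5 and in 46 all 4 values were at 50 or more. The weakest call was in C2 replicate 1 for 228 members, in C2 replicate 2 for 158, in C18 replicate 1 for 32 and in C18 replicate 2 for 107.

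**Figure D1:**
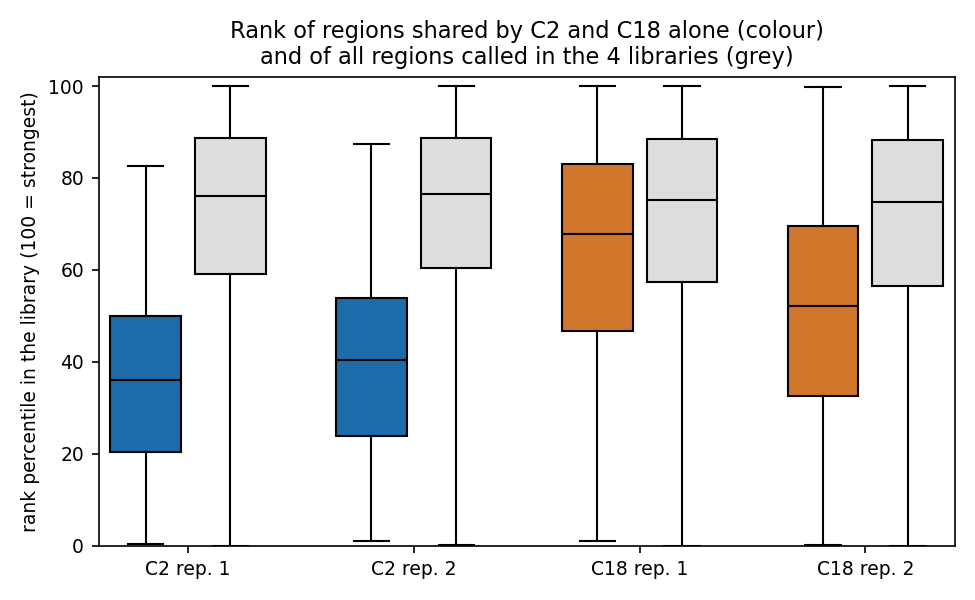
Rank percentile (y axis, 100 is the strongest peak of the library) of the 525 members (coloured boxes) and of all 44433 regions called in the 4 libraries (grey boxes), by library of C2 and C18 (x axis). Boxes span the quartiles with the median as a line, and whiskers reach the lowest and the highest value; the medians of the members are 36.0 and 40.5 in C2 and 67.9 and 52.1 in C18.

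Just outside the rule lay 388 regions called in all 4 libraries of C2 and C18 and in 1 library of C13 or C10. In 203 of them that library was C10 replicate 2, in 111 C10 replicate 1, in 51 C13 replicate 2 and in 23 C13 replicate 1. Their peaks there were weak, with a median percentile of 15.6, 15.9, 8.78 and 7.70 in that order of libraries. A further 1586 regions had no peak in C13 or C10 but missed 1 library of C2 or C18, most often C2 replicate 1 (568) or C18 replicate 2 (467). The nearest F-Seq peak of C13 or C10 stood at a median of 2485 bases from a member (quartiles 955 and 6368). It was within 1000 bases of 137 members and beyond 10000 bases of 98.

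Compared with other pairs of populations, the members were neither the most nor the fewest. C2 and C10 alone shared 1044 regions and C18 and C10 alone 480. C13 and C10 alone shared 2761, C2 and C13 alone 256, and C18 and C13 alone 71. Members lay in a gene body in 316 cases (60.2%, against 57.2% of all regions) and farther than 10 kb from any protein-coding gene in 131 (24.95%, against 29.7%). Regions of C2 and C10 alone lay that far in 39.0% of cases and those of C18 and C10 alone in 27.1%. An end of a gene body, either the start or the far end, was within 1 kb of 58 members (11.0%), against 11.2% of all regions and 28.6% of those called in all 4 libraries of C2 and C18. The median width was 922 bases, against 675 for all regions and 1600 for those called in all 4 libraries, and it was 924.5 for C2 and C10 alone and 885 for C18 and C10 alone. Chromosome 11 held 55 members (10.5%, against 6.06% of all regions) and chromosome 8 held 37 (7.05%, against 4.89%). Chromosome X held 6 (1.14%, against 2.01%).

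The HOMER lists show how far these calls depend on the peak caller. A HOMER peak overlapped 55.0% and 63.0% of members in C2, 54.5% and 28.2% in C18, 16.0% and 12.95% in C13, and 13.1% and 25.5% in C10. All regions had one in 33.6% and 39.2% in C2, 19.1% and 19.3% in C18, 51.6% and 50.2% in C13, and 45.5% and 52.2% in C10. Since all regions include those not called in C2 or C18, the comparison turns with the background in those populations. Regions called in all 4 libraries of C2 and C18 had a HOMER peak in 93.3% and 95.8% in C2, 76.1% and 74.7% in C18, 92.7% and 92.2% in C13, and 95.6% and 97.3% in C10, above the members in all 8 libraries. HOMER listed a peak in at least 1 library of C13 or C10 at 180 members, none of the 8 libraries at 82, and all 4 libraries of C2 and C18 with none of C13 and C10 at 36. Both callers' lists come from the same libraries, so these shares describe the members and give no test.

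**Figure D2:**
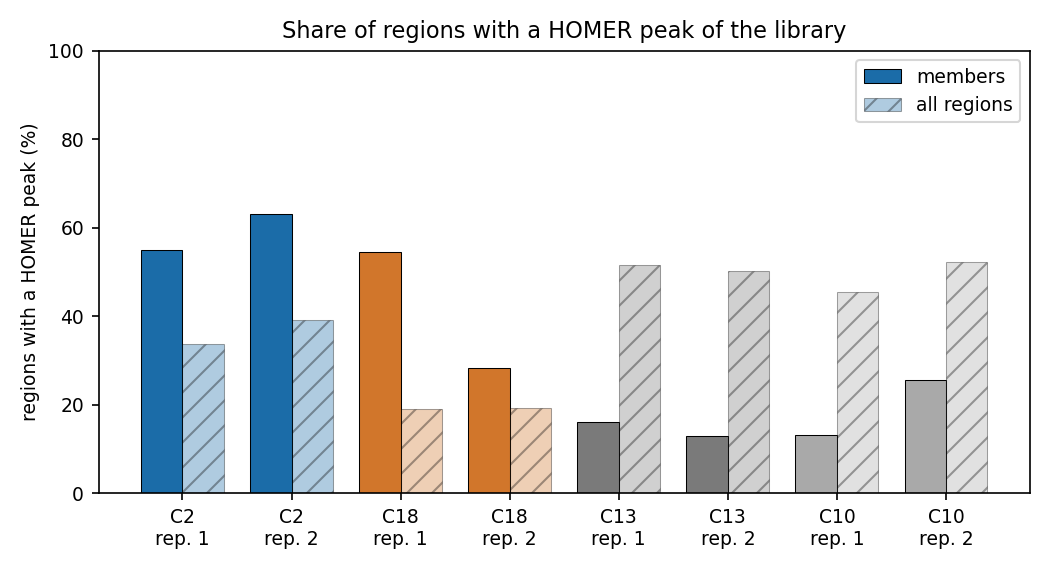
Share of regions with a HOMER peak of the library (y axis, percent) for the 525 members (solid bars) and all 207739 regions (hatched bars), in the 8 libraries (x axis). Members stand at 28.2% to 63.0% in C2 and C18 and at 12.95% to 25.5% in C13 and C10, where all regions stand at 45.5% to 52.2%.

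A difference in rank between CD34bright C2 and CD34dim C18 cells was not itself asked for by the rule, and it was tested. The ranks nevertheless come from the same peak lists whose calls chose the members. Of the 44433 regions called in these 4 libraries, 39641 were called in all 8 libraries and so were not chosen in that way. Values of the members beside those of the regions are therefore a description. In rank percentile, C2 minus C18, the median difference was -18.7 over members and 0.90 over the 44433 regions. The mean of the C2 libraries was the lower one at 434 of 525 members, and both C2 libraries ranked below both C18 libraries at 256 members (background 22.3% of regions). They ranked above both at 24 members (background 28.6%). By pair of libraries, 14.3% to 32.8% of members ranked higher in C2, against 52.3% to 54.6% of the regions. In limma with Benjamini-Hochberg adjustment over all regions, none of the members and none of the regions passed 0.05 (0% higher and 0% lower in C2). The smallest adjusted p was 0.123 over members and 0.102 over all regions. At an unadjusted p under 0.05, 1 member was higher in C2 (10.2% of regions) and 153 were lower (7.27% of regions). Every library weighed on the count of calls. Leaving out C2 replicate 1 called 37 members (0.241% of regions), C2 replicate 2 called 33 (0.329% of regions), C18 replicate 1 called 53 (11.1% of regions) and C18 replicate 2 called 49 (5.77% of regions). Of the regions called without C18 replicate 1, 4152 were higher and 775 lower in C2, and without C18 replicate 2 there were 2333 higher and 232 lower. In these fits a lone library is assumed to vary like the pair of the other population. Most member calls were lower in C2 in each of them. Without either C2 library nearly all region calls were lower in C2 too, so that direction was not particular to members. The median difference over members was -18.2 without C2 replicate 1 and -20.1 without C2 replicate 2. It was -14.2 without C18 replicate 1 and -26.8 without C18 replicate 2. Over regions it lay from 0.26 to 1.26. With covered bases in place of ranks the median difference was -0.39 over members (log2, scaled to list length) and 0.00 over regions, and without that scaling it was -0.04 and 0.36.

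**Figure D3:**
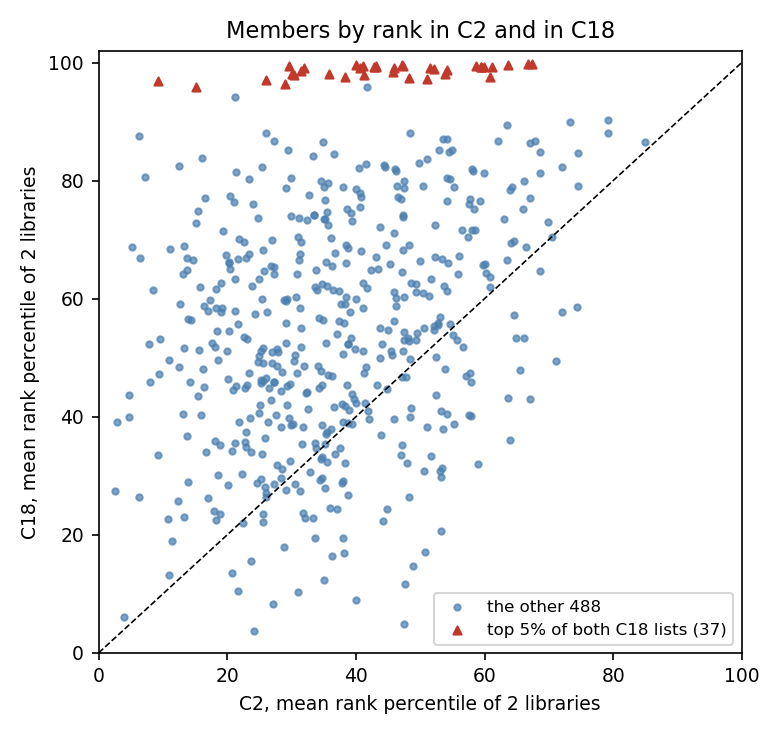
Mean rank percentile of each of the 525 members in the 2 C2 libraries (x axis) and in the 2 C18 libraries (y axis); the dashed line marks equal rank. Most points lie above the line, and the 37 triangles mark members in the top 5% of both C18 lists, whose C2 values spread over the lower and middle ranks.

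A subset of 37 members, picked after their values were seen, stood in the top 5% of both C18 lists. Their median percentile was 99.3 and 98.7 in C18, against 34.4 and 56.3 in C2. They were narrow, at a median of 583 bases against 952 for the other 488 members. HOMER listed 0 and 1 of them in the C18 libraries, whereas it listed 286 and 147 of the other members there. Regions called in all 4 libraries and in the top 5% of both C18 lists numbered 4063, and 97.7% of them had a HOMER peak in each C18 library. No HOMER peak of either C18 library lay at 92 of the 4063, some of them members, with a median width of 633 bases. Such narrow regions thus also occur outside the members. The 37 included 5 of the 6 members on chromosome X, and 20 of them lay beyond 10 kb of a gene. Without them the median difference of C2 minus C18 was -16.5 and the number of members 488. No named member is among the 37.

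Members lay at several neutrophil genes. A locus is a protein-coding gene body with 10 kb to each side, and 511 of 21887 loci (2.33%) held a member. Of 26 granulocyte and monocyte genes 5 (19.2%) did, namely S100a8, S100a9, Camp, Lcn2 and Ms4a3, and each member reached the gene body. The other pairs of populations had a region of their own at 1 of these 26 genes for C2 and C10 (3.01% of all loci), at none for C18 and C10 (1.72% of all loci), and at 3 for C13 and C10 (7.43% of all loci). A list of 29 late neutrophil genes, written after members had been seen, had 8 (27.6%) with a member, which adds Chil3, Retnlg, Mcemp1 and Cxcr2. In log2 F-Seq coverage, C2 and C18 minus C13 and C10, the median difference was 0.06 over these 29 loci and 0.12 over all loci. Scaled to list length, their summed F-Seq peaks covered 117 and 128 kb for C2 and 148 and 91.8 kb for C18. The sums were 116 and 116 kb for C13 and 91.2 and 97.3 kb for C10. These counts describe the lists, and no test of enrichment was made. HOMER listed a peak of C13 or C10 at the members of S100a8 and Ms4a3. With the rule run on HOMER lists in place of F-Seq lists, 1 of the 26 genes held such a region, and leaving out C18 replicate 2 gave 8.

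At S100a8 (chr3:90668464-90670003), the member had rank percentiles of 74.3 and 84.3 in C2, 95.3 and 81.0 in C18, and no F-Seq peak in C13 or C10. C18 replicate 1 had the highest value, and the lowest of the 4 was 74.3, in C2 replicate 1. HOMER, however, listed a peak there in all 8 libraries, so that the region is not absent from the HOMER lists of C13 and C10. At S100a9 (chr3:90694868-90696306), the values were 75.6 and 73.4 in C2 and 92.6 and 76.6 in C18. HOMER there listed a peak in all 4 libraries of C2 and C18 and in none of C13 and C10. At S100a9 both C18 values lie above both C2 values, whereas at S100a8 the values of C2 and C18 overlap. Other F-Seq peaks lay between the genes, and of the 6 regions in the S100a9 locus 1 was called in all 8 libraries. Inside S100a9 but outside the member, both callers also listed peaks of C13 and C10, with the nearest F-Seq peak at 867 bases. Scaled to list length, F-Seq peaks covered 2.74 ± 0.98 kb of the S100a8 locus for C2 and 5.34 ± 3.38 kb for C18, against 0.455 ± 0.064 kb for C13 and 0.478 ± 0.0082 kb for C10 (SD, n = 2 each). The 2.05 and 3.43 kb of C2 and the 7.73 and 2.95 kb of C18 all exceed the 4 values of C13 and C10. The rule picked the member in this locus for F-Seq peaks of that kind, so the separation is a description.

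**Figure D4:**
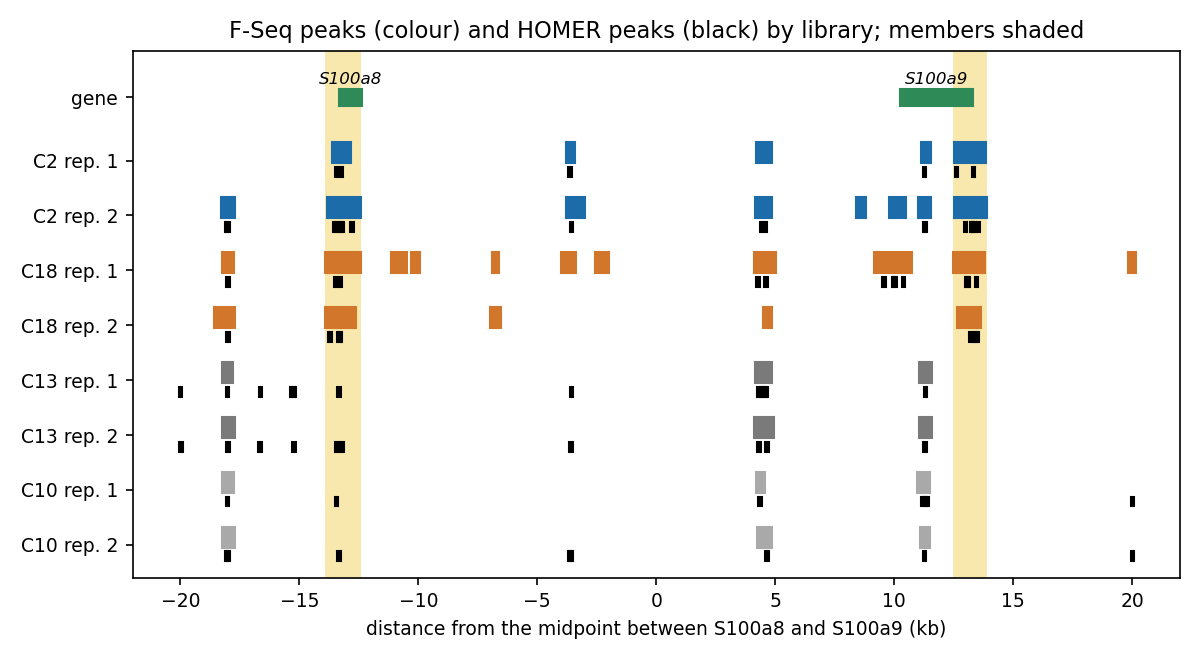
F-Seq peaks (coloured blocks) and HOMER peaks (black blocks) of the 8 libraries (rows) around S100a8 and S100a9 (green), by distance in kb from the midpoint between the genes (x axis); shading marks the 2 members. Both shaded columns hold F-Seq peaks in the 4 upper rows of C2 and C18 alone. HOMER blocks stand in the shaded column at S100a8 in all 8 rows and in that at S100a9 in the upper 4. Outside the shading, S100a9 also holds F-Seq and HOMER peaks in the 4 rows of C13 and C10.

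Camp, which encodes cathelicidin, had a member over its start (chr9:109848544-109849949) at 40.3 and 44.2 in C2 and 90.1 and 39.7 in C18. Only C18 replicate 1 ranked it highly. HOMER listed it in both C2 libraries and in C18 replicate 1. No F-Seq peak of C13 or C10 lay in the Camp locus, and HOMER listed none there either. Lcn2, the siderophore-binding lipocalin of secondary granules, had a member (chr2:32387430-32388163) at 29.5 and 47.5 in C2 and 65.9 and 54.6 in C18. HOMER listed it in 1 library of each. Its locus overlaps those of Ciz1, 1110008P14Rik and Ptges2. Ms4a3, a membrane protein of granulocyte and monocyte progenitors, had a member (chr19:11640359-11641275) at 73.9 and 63.3 in C2 and 89.5 and 73.0 in C18. Here HOMER added a peak in C13 replicate 1 and in C10 replicate 2, and F-Seq peaks in the locus as a whole covered 3.31 ± 0.012 kb for C2 and 3.17 ± 0.55 kb for C10 (SD, n = 2 each).

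Of the genes from lists written later, Chil3, a chitinase-like secreted protein, stood apart. Its member (chr3:106169415-106171643) lay 1851 bases from the nearer end of the gene, at 51.9 and 53.8 in C2 and 91.6 and 78.7 in C18. HOMER listed it in all 4 libraries of C2 and C18 only, and the nearest F-Seq peak of C13 or C10 was 49428 bases away. The members at Retnlg, a resistin-like gene of neutrophils, and Mcemp1, a mast cell and myeloid membrane protein, covered the starts. Retnlg stood at 12.3 and 46.0 in C2 and 77.2 and 42.2 in C18, and Mcemp1 at 13.3 and 17.5 in C2 and 71.0 and 15.9 in C18. In both, C18 replicate 1 alone passed 50. Cxcr2, the chemokine receptor that draws neutrophils out of the marrow, was the reverse, at 51.3 and 55.0 in C2 and 41.8 and 19.6 in C18. The member at Hp, the haemoglobin scavenger haptoglobin, stood at 46.1 and 22.6 in C2 and 52.6 and 37.3 in C18, had no HOMER peak in any library and shares its place with Dhx38 and Txnl4b.

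**Figure D5:**
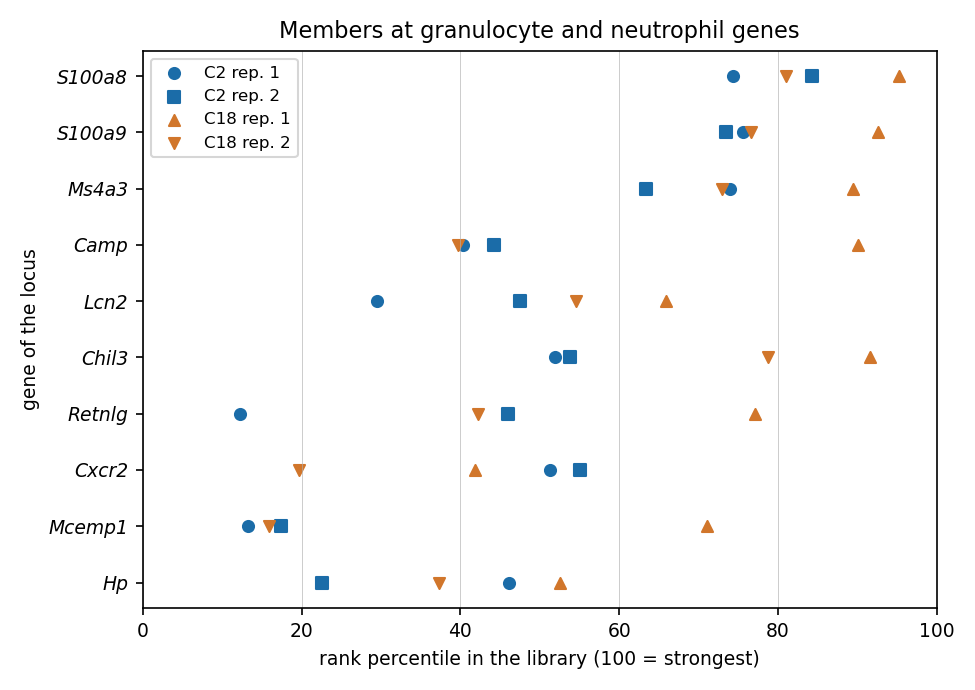
Rank percentile (x axis, 100 is the strongest peak of the library) of the 10 members at granulocyte and neutrophil genes named in the text (rows, italic), with a symbol for each library of C2 (blue) and C18 (orange). C18 replicate 1 has the highest value in 9 of the 10 rows, up to 95.3 at S100a8, while Cxcr2 is higher in C2. Over all 525 members C18 replicate 1 has the highest value at 324.

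Summed coverage of the granulocyte list differed between the peak callers. Summed over its 26 loci and scaled to list length, F-Seq peaks covered 148 and 159 kb for C2, 186 and 119 kb for C18, 126 and 132 kb for C13, and 103 and 112 kb for C10. C18 replicate 2 thus lay below C13. HOMER peaks, scaled in the same way, covered 34.86 and 34.97 kb for C2 and 66.3 and 39.2 kb for C18, all above the 24.9 and 27.0 kb of C13 and the 26.4 and 26.5 kb of C10. That order is not particular to this list. Housekeeping loci had 28.8 and 23.7 kb for C2 and 49.1 and 50.2 kb for C18. For these loci C13 had 19.0 and 19.8 kb and C10 had 22.8 and 19.3 kb. The erythroid list had the same order, and the lymphoid and macrophage lists did not. All 4 libraries of C2 and C18 exceeded all 4 of C13 and C10 in F-Seq coverage at 8 of the 26 loci (background 17.2% of 18458 loci). The rule used that contrast, so nothing is read from the count. In F-Seq coverage Camp was the locus at 0 in C13 and C10, and none was at 0 in C2 or C18. In HOMER coverage 1 and 2 loci were at 0 in the C18 libraries, 0 in C2, and 1 in each library of C13 and C10. Mpo, the primary granule peroxidase, held no member, although its covered length was 16.6 ± 0.85 kb for C2 and 14.8 ± 9.04 kb for C18, against 3.13 ± 0.21 kb for C13 and 4.58 ± 0.69 kb for C10 (SD, n = 2 each). Its 7 regions included 3 called in all 8 libraries.

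Lists of lymphoid, macrophage, stromal and endothelial, and mast cell, basophil and eosinophil genes held 1 member, and 2.33% of all loci held one. In lists this short, counts of none or 1 cannot be told apart from that share. The stem cell, megakaryocyte and erythroid lists are given below. None of 24 lymphoid, 15 macrophage and 17 stroma and endothelium genes held one, and 1 of 17 genes of mast cells, basophils and eosinophils did. That gene was Mcpt8, a basophil protease. Its member (chr14:56084814-56085634) stood at 7.31 and 11.7 in C2 and 37.0 and 69.5 in C18, and HOMER listed it in both libraries of C2, C13 and C10 and in C18 replicate 2. Over the 15 macrophage loci, F-Seq peaks covered 46.5 and 43.6 kb for C2, 39.6 and 35.9 kb for C18, 57.4 and 59.8 kb for C13, and 45.6 and 47.0 kb for C10. The part of other cells in the members was not tested.

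Genes of haematopoietic transcription factors held members as well, at 8 of 42 (19.0%, against 2.33% of all loci). They are Runx1, a regulator of blood stem cell formation, Etv6, an ETS repressor, Gfi1b and Nfe2, factors of the erythroid and megakaryocyte lines, Lmo2, a bridging partner of Tal1, Bcl11a, a repressor of fetal globin genes, Klf6, a Krüppel-like factor, and Zbtb16, a zinc finger repressor. These genes also held regions of C2 and C10 alone at 6 of 42, of C18 and C10 alone at none and of C13 and C10 alone at 7 (3.01%, 1.72% and 7.43% of all loci in that order). HOMER listed no peak of any library at the members of Etv6, Klf6, Lmo2 and Nfe2. The Nfe2 member lies at the neighbouring genes Hnrnpa1 and Cbx5 as well. Etv6 held 4 members among its 86 regions, the most members of any locus, where 0.253% of all regions are members. The 4 had lowest percentiles of 17.0, 7.78, 21.7 and 24.7. Foxn3, a forkhead repressor, held 3 of 90 regions, and HOMER listed 2 of them in both C2 libraries and in C18 replicate 1. The third had none. Loci with many regions, such as these and Runx1 with 78, have more places for a member. No allowance was made for that.

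Gfi1b had the widest member, 3578 bases at the gene (chr2:28616045-28619622). It stood at 66.9 and 66.0 in C2 and 50.5 and 87.0 in C18, and HOMER listed it in all 4 of these libraries and in both C13 libraries. Runx1 held 2 members: the one at chr16:92614988-92616461 was at 46.7 and 51.2 in C2 and 15.7 and 13.6 in C18, and HOMER listed it in C2 alone. Of the 44 named members, 4 had both C2 values above both C18 values, at Runx1, Zbtb16, Nbeal2 and Cxcr2, and 15 had both C18 values above both C2 values (background 28.6% and 22.3% of regions in that order). The Zbtb16 member also ranked higher in C2, with 35.7 and 26.5, against 8.14 and 12.5 in C18. Bcl11a had 37.1 and 37.6 in C2 and 57.8 and 64.9 in C18. Klf6, whose member lay 2977 bases outside the gene, had 44.6 and 51.6 in C2 and 56.7 and 49.9 in C18. In Lmo2 the values were 19.8 and 34.6 in C2 and 41.1 and 16.2 in C18, which overlap.

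Of 28 stem and multipotent genes 3 held a member (Kit, Lmo2 and Runx1), of 30 megakaryocyte genes 4 (Cd9, Gfi1b, Nbeal2 and Nfe2), of 31 erythroid genes 1 (Nfe2) and of 19 housekeeping genes 1 (Ywhaz). Of the 7 sort markers 2 did. In that order of lists, regions of C2 and C10 alone lay at 4, 2, 1, 0 and 1 genes. Those of C18 and C10 alone lay at 0, 0, 2, 0 and 0 genes, and those of C13 and C10 alone at 6, 3, 0, 3 and 2. Over all loci the shares were 2.33% for members and 3.01%, 1.72% and 7.43% for these pairs. The Cd9 member (chr6:125484723-125485211) lay in the gene and was at 61.4 and 67.7 in C2 and 72.7 and 66.9 in C18, and HOMER listed it in all 4 libraries of C2 and C18 and in none of C13 and C10. C10 cells were sorted as CD9+ as well, and C13 cells as CD9-. An F-Seq peak of C13 or C10 stood 282 bases away. Nbeal2, a gene of platelet alpha granules, had a member only in the flank of its locus, inside the neighbouring gene Ccdc12. That member stood at 22.8 and 31.2 in C2 and 10.7 and 5.72 in C18. The Kit member (chr5:75615613-75616511), in the gene 40211 bases from its nearer end, was at 29.5 and 24.1 in C2 and 68.3 and 62.6 in C18, though all populations were sorted as KIT+.

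The strongest members lay at genes of varied roles. By lowest percentile over the 4 libraries, the first was in Col4a2, a chain of type IV collagen, at 82.5 and 87.3 in C2 and 89.9 and 83.2 in C18 (chr8:11403493-11404486). It was followed by members in Prkch, a protein kinase C, with 81.1 and 77.4 in C2 and 94.7 and 86.0 in C18, at S100a8, in Sun2, which links the nuclear envelope to the cytoskeleton, and at S100a9. A member beyond 10 kb of any gene came next (chr4:150075453-150076700), with 75.5 and 68.6 in C2 and 91.0 and 73.8 in C18. The first 10 closed with members at Zfp276 and Fanca, Srd5a3, Gsr, the glutathione reductase, and Mbnl2, a splicing factor. In the Gsr member (chr8:33672922-33674474) the values were 68.0 and 66.2 in C2 and 91.3 and 81.3 in C18. C18 replicate 1 gave the highest value in all 10, and it did so at 324 of all 525 members. HOMER listed a peak in C13 or C10 at 6 of these 10 members, namely those at Col4a2, Prkch, S100a8, Zfp276 with Fanca, Srd5a3 and Gsr.

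Of the 36 members with a HOMER peak in all 4 libraries of C2 and C18 and none in C13 and C10, the first 10 by lowest percentile were those at S100a9, Sun2, Cd9, Nfia, Jakmip3, Mrps35, Oscp1 with Mrps15, and 3 beyond 10 kb of any gene. Nfia encodes a nuclear factor I protein of erythroid and granulocytic lineage choice, and its member (chr4:98103943-98104835) was at 65.5 and 68.8 in C2 and 82.7 and 71.6 in C18. One intergenic member (chr3:133435837-133437422) had Tet2, the methylcytosine dioxygenase, as the gene with the nearest end, 26255 bases away, and stood at 56.0 and 59.2 in C2 and 85.7 and 66.3 in C18. Both C18 values exceeded both C2 values at 4 of these 10 members (background 22.3% of regions), as they did at 256 of all 525. C18 replicate 2 was the lowest at Oscp1, with 57.7 against 71.1 and 68.7 in C2 and 88.2 in C18 replicate 1.

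Outside these rules, and chosen after their values were seen, promoters under members included those of Stat5b and Igf2r. Stat5b encodes a signal transducer of cytokine receptors, and its member (chr11:100849148-100851807) covered a window with 40 CpG dinucleotides. It stood at 64.9 and 45.3 in C2 and 69.5 and 38.4 in C18. HOMER listed it in all 4 of these libraries and in C13 replicate 1. Igf2r, the receptor that clears insulin-like growth factor 2, had a member over a window with 27 CpG dinucleotides, at 43.1 and 33.5 in C2 and 3.38 and 60.8 in C18. In both, the C2 values lay between those of the C18 libraries.

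The 4 libraries ordered the members less alike than they ordered all regions called in the 4. Across the 525 members, Spearman's rho between libraries was 0.35 for the C2 pair and 0.47 for the C18 pair. Across the 44433 regions it was 0.90 for the C2 pair and 0.76 for the C18 pair. Between C2 and C18 libraries it lay from 0.01 to 0.48 across members and from 0.69 to 0.78 across the 44433 regions. The 44433 regions include the members and were likewise chosen for a peak in each of the 4 lists. Members also differ from them in rank, and the part of rank in rho was not tested. Regions share their library and the width of its peaks, so these values are descriptions.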

How the data were processed

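Chromatin accessibility was measured by ATAC-seq in 8 libraries, 2 for each of 4 sorted populations, taken from the sample titles. Per the labels' protocols, each preparation used 40000 to 50000 cells and the transposase TDE1. Reads were mapped to mm10, and Bowtie 1.0.0 and HOMER 1.0 are named, per the submitters' processing notes, which give no F-Seq version. The authors deposited for each library 100000 F-Seq peaks with a signal (read density), and HOMER peaks with unlabelled score columns. Neither holds counts, so depth is unknown; the signal was used only as a rank within its list.

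Lists were merged with pandas 2.3.3, joining overlapping or touching peaks. Rank percentiles of the 44433 regions called in all 4 libraries of C2 and C18 were compared with limma 3.58.1 in R 4.3.3 (2 group means, eBayes with trend, two-sided, Benjamini-Hochberg, threshold 0.05). The fit and the merging were tested on simulated data. Loci were RefSeq protein-coding gene bodies (GRCm38.p6) with 10 kb flanks, and covered bases were scaled to the mean list length. Differences in covered bases were taken as log2(bases + 200), which understates change at small values.

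Members, marker lists and tests were chosen with earlier results of these data known. Named members are those at listed genes, the 10 highest by lowest percentile, the first 10 of those with HOMER peaks in C2 and C18 alone, loci with 3 or more members, and any called by limma; members at later-list genes and the 37 extreme C18 members were added after values were seen. A further gene of the later list is not reported here. Only 79.9% of protein-coding genes had a start in the RefSeq promoter table, so distances refer to either end of a gene body. No genome was used here, so motifs were read only in promoter windows.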

Additional observations from a re-analysis of the deposited data

How the results depend on the processing

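The number of members was 525, and it stayed so when touching peaks were kept apart or at least 100 bases were asked for. With HOMER lists in place of F-Seq it was 106, of which 36 members were shared. It was 344 when peaks had to cover at least 50% of a region (226 members shared), 345 with no HOMER peak in C13 and C10, and 36 with HOMER peaks in C2 and C18 alone. The 50000 strongest peaks gave 671 regions, of which only 46 members were part. Leaving out 1 library gave 548 to 1093 regions. The values were 1093 without C2 replicate 1, 992 without C18 replicate 2 and 816 without C2 replicate 2.

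Granulocyte and monocyte genes with a member numbered 5, against 1 with HOMER lists or with HOMER peaks in C2 and C18 alone, 3 with no HOMER peak in C13 and C10, 8 with a 50 kb flank, and 5 to 8 without 1 library (8 without C18 replicate 2). Late neutrophil genes numbered 8, against 3 with HOMER lists, 4 with the 50000 strongest peaks or with 50% of the region covered, 5 with no F-Seq peak of C13 or C10 within 1000 bases, 2 with HOMER peaks in C2 and C18 alone, and 8 to 10 without 1 library. Listed genes with a member numbered 18, and 29 with a 50 kb flank. Members within 5 kb of a gene end made up 32.2%, in place of 11.0% within 1 kb. HOMER shares changed only in C13, to 15.8% and 12.8%, when at least 75 bases of a HOMER peak had to lie inside.

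In C2 against C18, limma called no member and no region with scaled or unscaled bases, without the eBayes trend, over regions called in all 8 libraries, or without the 37 members (chosen after seeing the data). Without 1 library it called 33 to 53 members and 107 to 4927 regions. The replicate numbers did not pair the libraries (correlation of same-numbered deviations -0.02). With the replicate number as a block 64 members, all lower in C2, and 2619 regions were called, 1637 higher and 982 lower in C2. The cause of these moves was not tested. Motifs in the central 200 bases and distances to gene starts were not run, as no genome or complete table of starts was used here. The lists hold no counts, so a missing peak says only that the region was not among the peaks listed.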
